A study of Homo sapiens with 12 samples.

Results

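YAP1 and WWTR1, the gene of TAZ, encode a pair of transcriptional co-activators that act through the TEAD factors, and CCN1, CCN2, AMOTL2 and ANKRD1 are their most used target genes. The levels of these 10 genes, of 60623 in each expression table, were compared across 4 treatments of SK-OV-3 cells, an established human ovarian cancer line. The genes were taken by symbol, from a list drawn up with earlier results of these data known. Cells had been treated for 24 h with 300 nM doxorubicin plus 3 μM IN10018 (the combination), with doxorubicin alone, with IN10018 alone or with DMSO, the solvent control, and 3 libraries were sequenced per treatment. Doxorubicin is an anthracycline that damages DNA by trapping topoisomerase II, and IN10018 is an inhibitor of focal adhesion kinase (FAK, gene PTK2). The study asked what FAK inhibition adds to doxorubicin. All cells belong to 1 line, and nothing in the sources says that libraries sharing a treatment were grown apart. The p-values therefore cover the spread from library to library, which may be technical.

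In the Hippo pathway, MST and LATS kinases phosphorylate YAP and TAZ, which are then held in the cytoplasm by 14-3-3 proteins or degraded. When the pathway is off, YAP and TAZ enter the nucleus and bind TEAD factors on DNA, often next to AP-1. Adhesion, actin tension and FAK and SRC signalling favour the nuclear state, so that target gene mRNA is widely used as a readout. RNA levels of YAP1, WWTR1 and the TEAD genes do not report on phosphorylation or location, and in RNA from whole cultures fewer expressing cells and less RNA per cell cannot be told apart.

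Values were FPKM, fragment counts scaled to gene length and library size. They could be traced back to whole reads, between 8033951 and 12901505 per library. Combination replicate 2, IN10018 replicate 1 and DMSO replicate 2 lay away from the other libraries of their treatments along a component that took 55.4% of the spread within treatments, and no doxorubicin library did. Combination replicates 1, 2 and 3 had scores of -21.7, 25.3 and -3.53 on it, so replicates 1 and 3 also lay apart from each other. Of 10 markers of the line and its lineage, 7 (the keratin genes KRT7, KRT8, KRT18 and KRT19, ERBB2, PAX8 and EPCAM) had at least 1 FPKM in every library, while CDH1, MUC16 and WT1 stayed under 1 FPKM. Of 10 markers of immune, endothelial, stromal and liver cells, 8 stayed under 1 FPKM in every library, and CD68 was at 0 in all of them. The summed level of these markers was 1.82 to 2.48 FPKM in the combination, 0.92 to 1.23 in doxorubicin, 1.8 to 2.9 in IN10018 and 2.27 to 2.75 in DMSO, mostly COL1A1 and COL3A1, and its part in the results below was not tested. CDKN1A, a p53 target that halts the cell cycle, had 12.2, 26.9 and 26.9 FPKM in the combination and 21.1, 13.8 and 19.6 FPKM in doxorubicin, against 4.43, 2.53 and 4.01 FPKM in IN10018 and 2.34, 3.15 and 2.96 FPKM in DMSO. MDM2, another p53 target, was at 0.715 to 0.911 FPKM in the 6 libraries with doxorubicin, against 0.717 to 1.51 FPKM in the 6 without it. PTK2, the target of IN10018, lay between 1.94 and 3.95 FPKM in all 12 libraries and was not called in any comparison.

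Promoter stretches are shown because TEAD factors and AP-1 act by binding DNA, and those printed are the ones that held a match. RefSeq promoter sequences on GRCh38.p14 matched 7 of the 10 genes by symbol, and the 250 bases before each start were searched on both strands for CATTCC, the core of the TEAD motif, which reads as GGAATG when it lies on the opposite strand. The AP-1 motif searched was TGANTCA, a loose form in which N stands for any base, and the matches shown do not overlap each other. CCN1, TEAD1 and TEAD4 were not searched. Capitals mark the matches, all sequences run 5′ to 3′ on the strand of the gene, and bases are counted back from the RefSeq start. The CCN2 stretch is chr6:131951423-131951572 on the minus strand, bases 200 to 51. The ANKRD1 stretches are chr10:90921276-90921337, bases 250 to 189, and chr10:90921198-90921227, bases 140 to 111, both on the minus strand. The YAP1 stretch is chr11:102110272-102110301 on the plus strand, bases 175 to 146.
CCN2: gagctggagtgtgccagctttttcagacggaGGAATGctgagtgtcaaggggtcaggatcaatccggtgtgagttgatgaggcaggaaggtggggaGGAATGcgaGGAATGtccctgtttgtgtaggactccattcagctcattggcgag
ANKRD1 distal: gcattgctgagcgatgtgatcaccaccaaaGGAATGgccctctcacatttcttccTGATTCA
ANKRD1 proximal: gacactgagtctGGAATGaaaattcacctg
YAP1: ccgggagtgtgcaGGAATGtagcaacttgc
CCN2 held 3 TEAD matches, which start 169, 104 and 95 bases before the start. ANKRD1 held 2 TEAD matches and 1 AP-1 match, TGATTCA, and YAP1 held 1 TEAD match. No match lay in these windows of WWTR1, TEAD2, TEAD3 and AMOTL2. Only 1 start was searched per gene, and the WWTR1 window, chr3:149703274-149703523, lies inside the gene and not before its outermost start. Most of the ANKRD1 window, chr10:90921088-90921337, lies inside the gene too, whose outermost start is at 90921276, and so does the proximal stretch. The TEAD2 and AMOTL2 windows run partly into their genes. Over 35116 RefSeq promoters of the same length, 11.9% held at least 1 CATTCC, 0.94% at least 2 and 0.0826% at least 3, and 6.57% held TGANTCA. A match describes the letters and is not a measured site.

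WWTR1 and YAP1 had the highest mean levels of the 10 genes in DMSO cells, and ANKRD1 had the lowest. In DMSO, WWTR1 averaged 14.8 ± 4.78 FPKM, YAP1 11.4 ± 4.34, CCN1 5.40 ± 0.987, TEAD2 5.27 ± 1.46, TEAD4 4.51 ± 0.726, TEAD3 3.86 ± 0.802, TEAD1 3.5 ± 1.38, CCN2 2.26 ± 0.696, AMOTL2 2.09 ± 0.829 and ANKRD1 0.246 ± 0.279 (SD, n = 3). Neighbours in this order differed by less than the larger of their SDs, except YAP1 and CCN1 and, at the low end, AMOTL2 and ANKRD1. In doxorubicin, CCN1 had the highest mean of the 10 genes. ANKRD1 reached 1 FPKM only in the 6 libraries with doxorubicin and passed the filter on low values (1 FPKM in 3 libraries) through them, while the other 9 genes had at least 1 FPKM in every library.

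**Figure D1:**
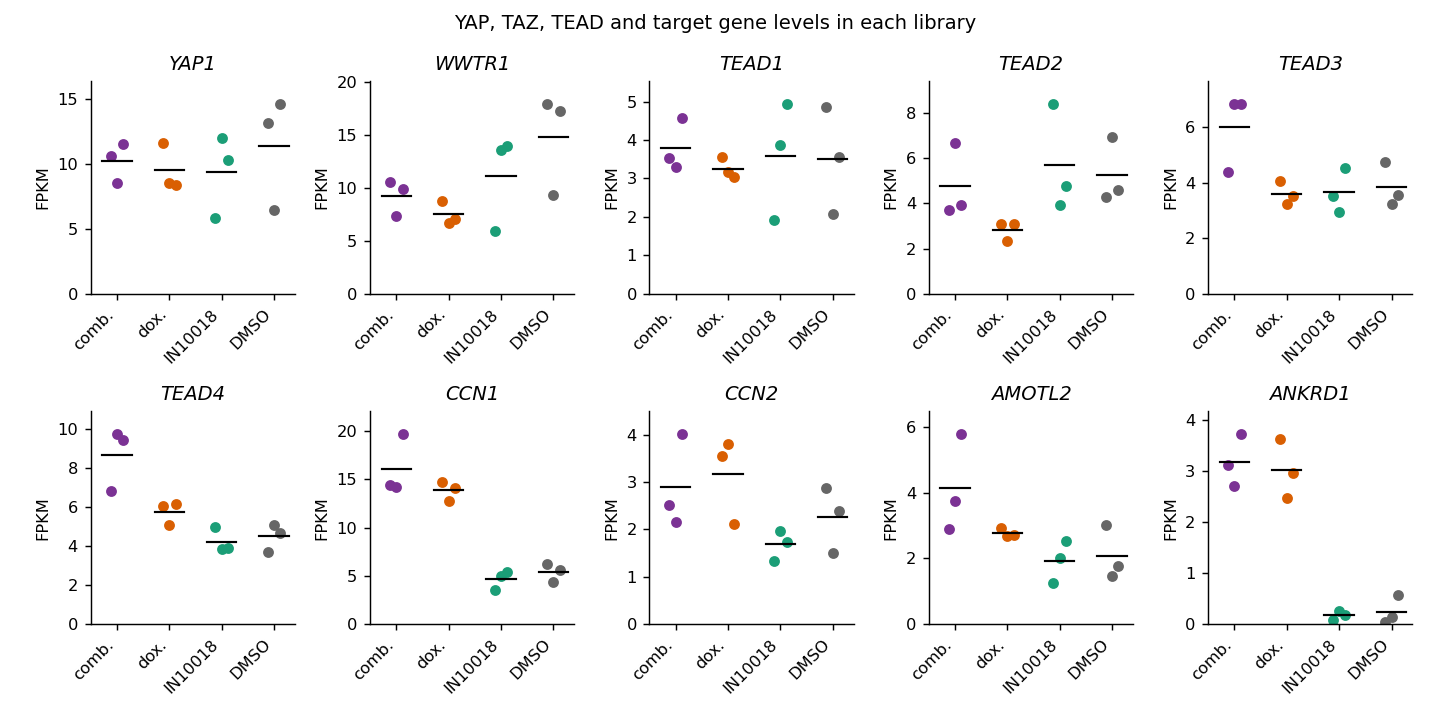
FPKM of the 10 genes in each library, from left to right in the combination, doxorubicin, IN10018 and DMSO. Each point is a library and each line the mean of 3, on linear axes that start at 0. CCN1 and ANKRD1 were higher in all 6 libraries with doxorubicin than in the 6 without it.

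The target genes CCN1 and ANKRD1 were higher in doxorubicin than in DMSO, and the other 8 genes did not pass the test. The limma model took log2(FPKM + 1) from the 12 libraries together, with the 11301 genes past the filter tested at once and calls made where the p adjusted by Benjamini and Hochberg's method fell below 0.05. Between doxorubicin and DMSO, 2 of 10 genes were called, both higher, where 8.02% of all genes tested were called and 5.92% were called higher. ANKRD1 entered this count only through the libraries with doxorubicin, which took it past the filter. The median log2 fold change was 0.14 over the 10 genes and -0.01 over all genes.

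CCN1 (formerly CYR61, chromosome 1, 85580761 to 85583962) encodes a secreted matrix protein that binds integrins. It had 14.7, 12.8 and 14.1 FPKM in doxorubicin, against 6.27, 4.33 and 5.6 FPKM in DMSO. The groups did not overlap, and the log2 fold change was 1.23 ± 0.20 (SE; limma adjusted p = 0.00268). With IN10018 present in both arms it had 14.4, 14.2 and 19.7 FPKM in the combination, against 3.54, 4.99 and 5.37 FPKM in IN10018. Here the log2 fold change was 1.60 ± 0.20 (limma adjusted p = 0.00019). The 2 fold changes share no library, but the model took the spread behind both p-values from all 12 libraries. Between the combination and DMSO it was 1.42 ± 0.20 (limma adjusted p = 0.000639). Of all genes tested, 1.93% had a larger log2 fold change than CCN1 in doxorubicin minus DMSO and 1.13% in combination minus IN10018. All 3 calls were kept under each of the 24 alternative settings.

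ANKRD1 (chromosome 10, 90912096 to 90921276), which encodes an ankyrin repeat protein of muscle and stressed cells, was close to absent without doxorubicin. It had 82, 57 and 72 reads in doxorubicin, against 1, 3 and 12 reads in DMSO. In the combination it had 61, 69 and 95 reads, against 2, 4 and 4 reads in IN10018. Every library with doxorubicin was above every library without it, as FPKM between 2.47 and 3.72 against 0.0405 and 0.564. Summed over libraries and set against the summed depth, the ratio was 12.9 for doxorubicin over DMSO (95% exact interval 7.74 to 22.9, counting error only). DMSO replicate 3 held 12 of the 16 DMSO reads, and without it the ratio was 35.5 (13.6 to 131). For the combination over IN10018 the ratio was 19.9 (10.6 to 42.1). On the log2(FPKM + 1) scale, which understates the change of low genes, the fold changes were 1.70 ± 0.18 in doxorubicin minus DMSO (limma adjusted p = 0.000201) and 1.83 ± 0.18 in combination minus IN10018 (limma adjusted p = 6.04e-05). For the combination minus DMSO it was 1.76 ± 0.18 (limma adjusted p = 9.17e-05). ANKRD1 passed the filter only through libraries with doxorubicin, the higher side of these comparisons, so its p-values do not stand apart from that selection. The log2 fold change of doxorubicin minus DMSO became 3.46 with a pseudocount of 0.1 and 4.12 with voom on the recovered reads.

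CCN2 and AMOTL2, the other target genes, did not pass the test with doxorubicin alone. CCN2 (formerly CTGF), a secreted relative of CCN1, had 3.55, 3.81 and 2.12 FPKM in doxorubicin, against 2.88, 1.51 and 2.39 FPKM in DMSO, and the groups overlapped. The log2 fold change was 0.35 with a 95% interval of -0.15 to 0.85 (limma adjusted p = 0.409). In the combination it had 2.51, 2.16 and 4.01 FPKM, against 1.34, 1.97 and 1.73 FPKM in IN10018. These groups did not overlap, but the log2 fold change of 0.52 ± 0.23 did not pass the test (limma adjusted p = 0.149). As a description, with the ratio chosen after the values were seen, CCN1 was at 3.36 to 6.65 times the FPKM of CCN2 in the 6 libraries with doxorubicin, against 2.18 to 3.10 times in the 6 without it.

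AMOTL2 encodes a member of the angiomotin family, which binds and restrains YAP, so it is both a target and an inhibitor. It had 2.92, 2.69 and 2.70 FPKM in doxorubicin, against 3.03, 1.47 and 1.76 FPKM in DMSO, with a log2 fold change of 0.32 ± 0.24 (limma adjusted p = 0.478). In the combination it had 2.91, 3.75 and 5.79 FPKM, against 1.24, 2.02 and 2.52 FPKM in IN10018, without overlap. The log2 fold change there was 0.80 ± 0.24 (limma adjusted p = 0.036), and against DMSO 0.73 ± 0.24 (limma adjusted p = 0.0542). The value against DMSO passed when DMSO replicate 1 (0.94, limma adjusted p = 0.0289), IN10018 replicate 1 (0.73, limma adjusted p = 0.037) or combination replicate 1 (0.91, limma adjusted p = 0.0227) was left out. In all it passed under 5 of 23 alternatives. The call against IN10018 for AMOTL2 was lost under 14 of 23 alternatives, among them median-ratio scaling (0.57, limma adjusted p = 0.054) and the replicate block (0.80, limma adjusted p = 0.0579). It was also lost when any 1 doxorubicin library, IN10018 replicate 1 or 2, or combination replicate 2 or 3 was left out, with the lowest value of 0.58 (limma adjusted p = 0.185) without combination replicate 3.

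**Figure D2:**
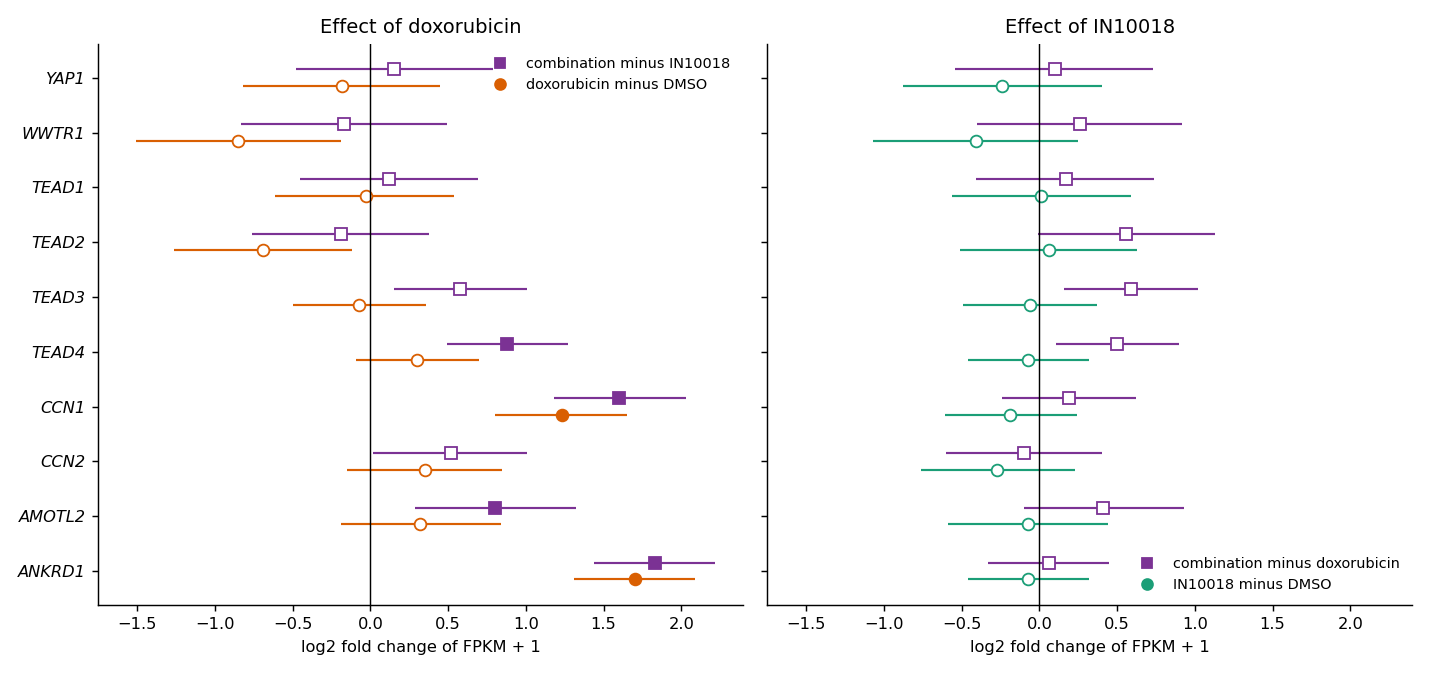
Log2 fold changes of FPKM + 1 for the 10 genes with 95% intervals from limma. The left panel gives the effect of doxorubicin with IN10018 (combination minus IN10018) and without it (doxorubicin minus DMSO), and the right panel the effect of IN10018 with doxorubicin (combination minus doxorubicin) and without it (IN10018 minus DMSO). Filled symbols passed the adjusted threshold of 0.05. CCN1 and ANKRD1 passed in both comparisons on the left, TEAD4 and AMOTL2 passed in combination minus IN10018, and no gene passed on the right.

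Among the 4 TEAD genes, which encode the DNA-binding partners, TEAD4 was higher in the combination. In all, 3 of 10 genes (CCN1, ANKRD1 and TEAD4) were called higher in the combination than in DMSO, where 15.6% of all genes were called and 14.3% called higher. Against IN10018, 4 of 10 genes (AMOTL2 in addition) were called higher, where 16.1% of all genes were called and 14.6% called higher. Both counts include ANKRD1, which passed the filter only through the libraries with doxorubicin. The combination libraries had a shift of all genes on this scale: the median over all genes was 0.20 against DMSO, 0.20 against IN10018 and 0.23 against doxorubicin, while it was -0.01 for doxorubicin minus DMSO. The median over the 10 genes was 0.39 against DMSO and 0.55 against IN10018.

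TEAD4 (chromosome 12, 2959330 to 3040673) had 6.82, 9.75 and 9.47 FPKM in the combination, against 6.07, 5.08 and 6.18 FPKM in doxorubicin, 4.96, 3.83 and 3.91 FPKM in IN10018 and 3.70, 5.11 and 4.70 FPKM in DMSO. The combination overlapped with none of the other groups. The log2 fold change was 0.81 ± 0.18 against DMSO (limma adjusted p = 0.01) and 0.88 ± 0.18 against IN10018 (limma adjusted p = 0.00542). After median-ratio scaling, which takes out the shift of all genes, it was 0.53 against DMSO (limma adjusted p = 0.123) and 0.60 against IN10018 (limma adjusted p = 0.0816), so that the TEAD4 calls were lost. They were also lost with quantile normalization (0.53 and 0.60, limma adjusted p = 0.0901 and 0.0512). TEAD4 transcripts have 62.7% G and C, and with a correction for base composition and length, chosen after seeing the data, the value was 0.30 against DMSO (limma adjusted p = 0.0766) and 0.54 against IN10018 (limma adjusted p = 0.00456). Against DMSO the call was also lost without combination replicate 3 (0.74, limma adjusted p = 0.057).

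TEAD3 had 4.39, 6.82 and 6.84 FPKM in the combination, against 4.07, 3.23 and 3.52 FPKM in doxorubicin. The groups did not overlap, and the log2 fold change of 0.59 ± 0.20 did not pass the test (limma adjusted p = 0.246). Without combination replicate 1 it was 0.77 (limma adjusted p = 0.0421), and it passed under 2 of 23 alternatives, this fit and array weights. TEAD2 had 3.08, 2.33 and 3.11 FPKM in doxorubicin, against 4.28, 6.95 and 4.59 FPKM in DMSO, also without overlap. Its log2 fold change was -0.69 ± 0.26 (limma adjusted p = 0.134). For TEAD2 the comparison passed under 3 of 24 alternatives. Among them were the fit without the 3 libraries that stood apart (-0.51, limma adjusted p = 0.0246) and the correction for base composition and length (-0.87, limma adjusted p = 0.00438). Those libraries were picked by a component of these data that TEAD2 follows (r = 0.95), so the p-value without them does not stand apart from that choice. TEAD1 lay between 1.92 and 4.94 FPKM in all 12 libraries, and its log2 fold changes in the 5 comparisons of 2 treatments were between -0.03 and 0.17.

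Because FPKM is scaled to gene length, the TEAD genes can also be set against each other within a library. The 4 genes summed to 23.3 ± 4.26 FPKM in the combination, 15.5 ± 1.52 in doxorubicin, 17.2 ± 2.28 in IN10018 and 17.1 ± 0.637 in DMSO (SD, n = 3). TEAD4 made up 36.9%, 36.7% and 38.1% of this sum in the combination and 36.2%, 36.8% and 39.0% in doxorubicin, against 26.4%, 26.3% and 21.5% in IN10018 and 21.0%, 29.4% and 28.7% in DMSO. The share of TEAD4 was thus higher in each of the 6 libraries with doxorubicin than in the 6 without it, while the share of TEAD2 averaged 20.4% ± 4.60 in the combination and 18.3% ± 1.37 in doxorubicin, against 32.6% ± 10.5 in IN10018 and 30.8% ± 8.18 in DMSO. Without the 3 libraries that stood apart the share of TEAD4 was 36.2% to 39.0% with doxorubicin (5 libraries), against 21.0% to 28.7% without it (4 libraries). TEAD4 itself was not called in doxorubicin minus DMSO (log2 fold change 0.30 ± 0.18, limma adjusted p = 0.357), where the groups overlapped. TEAD2 and TEAD4 have 58.3% and 62.7% G and C, and correlations of 0.95 and 0.80 with the component that sets those libraries apart. The part of base composition, gene length or that component in the shares was not tested. The shares were chosen after the values were seen and are given with no test.

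YAP1 and WWTR1, the co-activators themselves, were not called in any comparison. YAP1 (chromosome 11, 102110461 to 102233423) had 10.6, 8.54 and 11.5 FPKM in the combination and 11.6, 8.54 and 8.38 FPKM in doxorubicin, against 5.85, 12 and 10.3 FPKM in IN10018 and 13.1, 6.48 and 14.6 FPKM in DMSO. All groups overlapped. The log2 fold change of doxorubicin minus DMSO was -0.18 (95% interval -0.82 to 0.45, limma adjusted p = 0.775), and without the 3 libraries that stood apart the YAP1 value was -0.51 (limma adjusted p = 0.0448). YAP1 passed under 2 of 24 alternatives, that fit and array weights. The 3 libraries were picked by a component of these data that YAP1 follows (r = -0.90), so that p-value does not stand apart from the choice.

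WWTR1 (chromosome 3, 149517235 to 149736714) had 8.77, 6.72 and 7.05 FPKM in doxorubicin, against 17.9, 9.30 and 17.2 FPKM in DMSO, without overlap. The log2 fold change of -0.85 ± 0.31 did not pass the test (limma adjusted p = 0.113), although 98.7% of all genes had a larger value. The spread within DMSO came from replicate 2, at 9.30 FPKM. Without that library the WWTR1 value was -1.13 (limma adjusted p = 0.0376), and without the 3 libraries that stood apart it was -1.13 (limma adjusted p = 0.00255). Those 3 libraries, DMSO replicate 2 among them, were picked by a component of these data that WWTR1 follows (r = -0.94). Neither p-value stands apart from that choice. WWTR1 also passed with median-ratio scaling (-0.87, limma adjusted p = 0.0382), with the correction for base composition and length (-0.75, limma adjusted p = 0.0227), with array weights (-1.14, limma adjusted p = 2.96e-06) and without IN10018 replicate 1 (-0.85, limma adjusted p = 0.0394). Under the other 18 of 24 alternatives it did not pass. In the combination WWTR1 had 10.5, 7.38 and 9.90 FPKM, and the log2 fold change against DMSO was -0.59 ± 0.31 (limma adjusted p = 0.225). That comparison passed under 4 of 24 alternatives and did not pass under 20. Among the 4 were median-ratio scaling (-0.86, limma adjusted p = 0.0391) and the fit without the 3 libraries that stood apart (-0.73, limma adjusted p = 0.016). Against IN10018, with 5.92, 13.6 and 13.9 FPKM, the combination overlapped.

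Within each library, WWTR1 stood lower relative to YAP1 where doxorubicin was present. The ratio of their FPKM was 0.993, 0.863 and 0.863 in the combination and 0.755, 0.787 and 0.841 in doxorubicin, against 1.01, 1.14 and 1.35 in IN10018 and 1.36, 1.44 and 1.18 in DMSO. The 6 libraries with doxorubicin were below 1 and the 6 without it above 1, though the gap between 0.993 and 1.01 is small. Without the 3 libraries that stood apart the ratio was 0.755 to 0.993 with doxorubicin, against 1.14 to 1.36 without it. Of those libraries, IN10018 replicate 1 had the lowest ratio without doxorubicin (1.01) and DMSO replicate 2 the highest (1.44). WWTR1 and YAP1 have 49.0% and 45.7% G and C, and correlations of -0.94 and -0.90 with the component that sets those libraries apart. The part of base composition, gene length or that component in the ratio was not tested. The ratio was chosen after the values were seen and is given with no test.

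**Figure D3:**
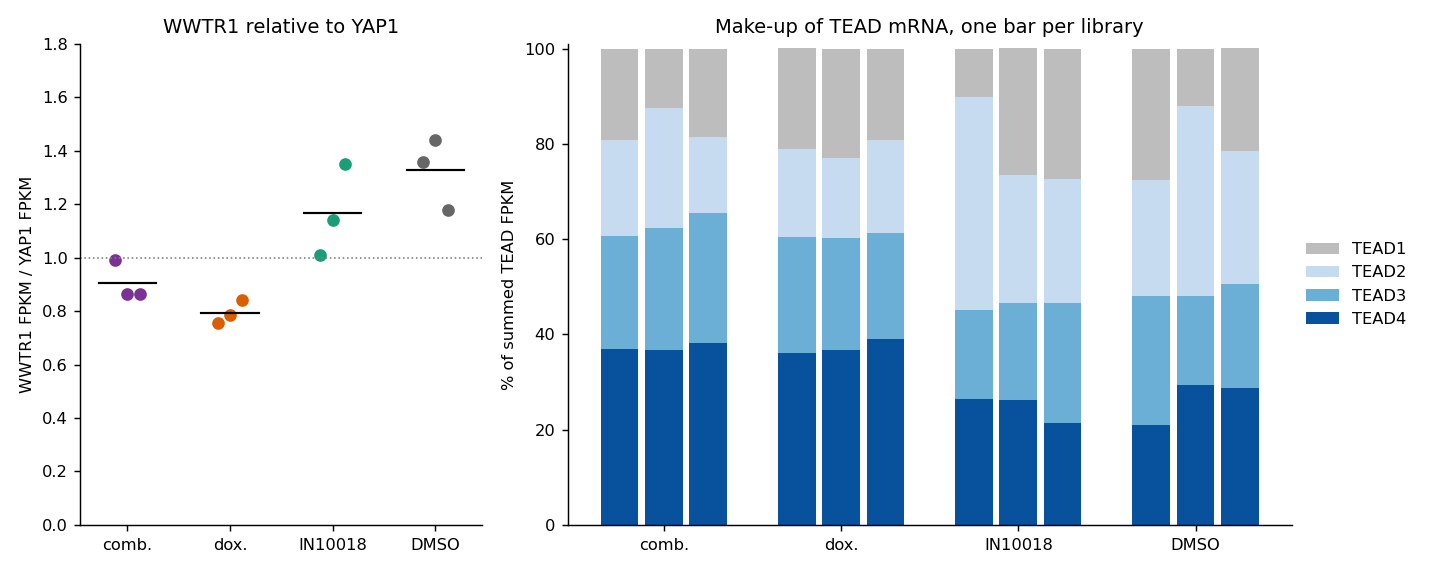
Left, WWTR1 FPKM divided by YAP1 FPKM in each library, with the mean of 3 as a line and a ratio of 1 dotted. Right, the share of each TEAD gene in the summed FPKM of the 4 TEAD genes, in percent, with a bar for each library. The WWTR1 to YAP1 ratio lay between 0.755 and 0.993 with doxorubicin, against 1.01 to 1.44 without it, and the share of TEAD4 between 36.2% and 39.0%, against 21.0% to 29.4%.

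The effect of IN10018, which inhibits a kinase upstream of YAP, was tested with and without doxorubicin. None of the 10 genes was called in IN10018 minus DMSO, where 0.00885% of all genes were called, or in combination minus doxorubicin, where 0% were called. That background rested on the libraries kept: over all genes, 676 were called in combination minus doxorubicin without combination replicate 1 and 1321 without the 3 libraries that stood apart, and of the 10 genes 1 (TEAD3) and 0 in these fits. In IN10018 minus DMSO no gene had an unadjusted limma p under 0.05, and in combination minus doxorubicin 2 had (TEAD3 and TEAD4). With voom on the recovered reads, 0 of the 10 genes were called in either comparison. With array weights, which weight whole libraries and did not converge, 0 were called in IN10018 minus DMSO and 4 in combination minus doxorubicin (TEAD2, TEAD3, TEAD4 and AMOTL2). Without doxorubicin, the log2 fold changes ran between -0.41 (WWTR1) and 0.06 (TEAD2), with a median of -0.07. With doxorubicin, they ran between -0.10 (CCN2) and 0.59 (TEAD3), with a median of 0.23, the same as the median over all genes.

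The intervals bound the size of an IN10018 effect on the target genes only on the log2(FPKM + 1) scale, which understates the change of low genes. In IN10018 minus DMSO the 95% intervals of the log2 fold change were -0.61 to 0.24 for CCN1, -0.76 to 0.23 for CCN2 and -0.59 to 0.44 for AMOTL2. Pooled over both doxorubicin states, CCN1 was at 0.00 (-0.30 to 0.30), CCN2 at -0.18 (-0.53 to 0.17), AMOTL2 at 0.17 (-0.19 to 0.53) and ANKRD1 at 0.00 (-0.28 to 0.27). ANKRD1 averaged 0.171 FPKM in IN10018 and 0.246 in DMSO, so its interval bounds little where doxorubicin is absent. In the pooled comparison none of the 10 genes was called, where 0.0708% of all genes were called, and none had an unadjusted limma p under 0.05. Without combination replicate 1 the pooled count over all genes was 303, against 8 with it, and still 0 of the 10 genes. The log2 fold changes of CCN2 with IN10018 were -0.27 ± 0.23 without doxorubicin and -0.10 ± 0.23 with it, and neither passed the test (limma adjusted p = 1 and 0.787). Over the alternative settings the CCN2 value without doxorubicin ran from -0.44 to -0.13.

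Whether the doxorubicin effect depended on IN10018 was tested by the interaction, which called none of the 10 genes and 0% of all genes. TEAD3 (0.65 ± 0.28) and TEAD4 (0.58 ± 0.26) had unadjusted limma p under 0.05, and their limma adjusted p was 0.685, as was that of WWTR1 (0.67 ± 0.43). All 10 genes had an interaction above 0, as had 77.6% of all genes, whose median was 0.24. For CCN1 the interaction was 0.38 (95% interval -0.23 to 0.98), so that the larger doxorubicin effect with IN10018 was not shown to differ from that without it.

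The spread between libraries of 1 treatment was shared by most of these genes. Across 12 libraries, after the treatment means were taken out, Pearson's r with the component that sets 3 libraries apart was -0.94 for WWTR1, -0.90 for YAP1, -0.82 for TEAD1, -0.70 for CCN1, -0.65 for CCN2, -0.48 for AMOTL2 and -0.34 for ANKRD1. It was 0.95 for TEAD2, 0.80 for TEAD4 and 0.03 for TEAD3. These correlations are descriptions, since the component was computed from the same libraries. YAP1, WWTR1 and TEAD1 (42.8% to 49.0% G and C) were low, and TEAD2 and TEAD4 (58.3% and 62.7%) high, in the libraries that stood apart. Base composition did not sort all of these genes. AMOTL2 (59.6%) had a negative r and TEAD3 (60.3%) an r of 0.03, although both have more G and C than TEAD2. CCN1, CCN2 and ANKRD1 (53%, 51.5% and 43.3%) had negative r. The part of base composition in these correlations was not tested.

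**Figure D4:**
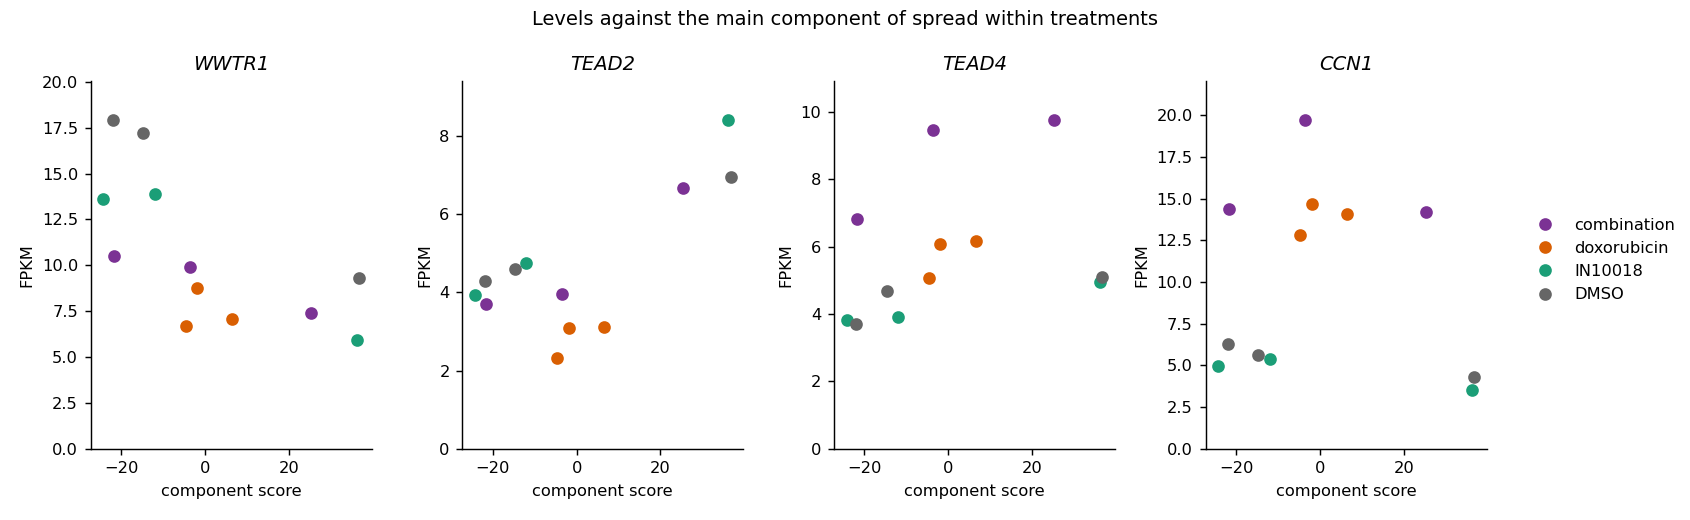
FPKM of WWTR1, TEAD2, TEAD4 and CCN1 against the score of each library on the main component of spread within treatments (no unit). Points are libraries, coloured by treatment. The libraries with scores of 25.3 to 36.7 are combination replicate 2, IN10018 replicate 1 and DMSO replicate 2, where WWTR1 was lowest and TEAD2 highest within the treatment.

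Further target genes and the AP-1 factors that act beside TEAD were followed in lists. Of 26 other YAP and TEAD target genes, 21 passed the filter on low values. Of these, 2 were called higher and 0 lower in doxorubicin minus DMSO, 2 higher and 1 lower in combination minus DMSO, and 4 higher and 0 lower in combination minus IN10018, with medians of 0.13, 0.38 and 0.35. These counts are near the 8.02%, 15.6% and 16.1% of all genes called, whose medians were -0.01, 0.20 and 0.20. GADD45A, a DNA damage response gene that is also a p53 target, had 61.8, 52.9 and 56.3 FPKM in doxorubicin, against 9.42, 6.96 and 7.68 FPKM in DMSO. In the combination GADD45A had 86.7, 67.3 and 107 FPKM, against 5.22, 6.98 and 9.60 FPKM in IN10018, and the log2 fold changes were 2.69 ± 0.23 and 3.42 ± 0.23 (limma adjusted p = 5.37e-05 and 3.52e-06). TNFRSF12A, the receptor of the cytokine TWEAK, rose by 1.48 ± 0.17 and 1.33 ± 0.17 in the same comparisons (limma adjusted p = 0.000295 and 0.000234). NT5E, the ectonucleotidase CD73, was lower in the combination, with 4.07, 3.95 and 5.25 FPKM, against 10.9, 7.25 and 11.9 FPKM in DMSO (log2 fold change -1.0 ± 0.25, limma adjusted p = 0.0155, lost under 4 of 24 alternatives, among them the fits without DMSO replicate 1 or 3 or combination replicate 2). AXL, a receptor tyrosine kinase, and F3, tissue factor, were higher in the combination than in IN10018 (0.83 ± 0.21 and 1.00 ± 0.31, limma adjusted p = 0.0164 and 0.0457), and the call of F3 was lost under 15 of 24 alternatives and that of AXL under 3, among them the fits without IN10018 replicate 2 or combination replicate 3. Within the CCN family, 4 of 6 genes passed the filter and CCN1 was the member called in each of these comparisons.

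The AP-1 list, subunits and relatives that bind the TGANTCA motif or dimerize with those that do, held 9 genes past the filter of 10. Of these, 6 were called higher in doxorubicin minus DMSO, 6 in combination minus DMSO and 7 in combination minus IN10018, with medians of 1.13, 1.67 and 1.36, and none was called lower. Of all genes, 5.92%, 14.3% and 14.6% were called higher in these comparisons. These counts include ATF3 and, in combination minus IN10018, FOS. Without doxorubicin ATF3 lay between 0.196 and 0.616 FPKM and FOS between 0.332 and 0.964 FPKM. Both passed the filter only through libraries with doxorubicin, the higher side of these comparisons, so their calls do not stand apart from that selection. ATF3, a stress-induced factor, had 6.86, 6.77 and 6.22 FPKM in doxorubicin, against 0.556, 0.196 and 0.507 FPKM in DMSO. JUN had 17.8, 15.6 and 14.8 FPKM in doxorubicin, against 4.73, 3.6 and 4.68 FPKM in DMSO. The log2 fold changes of doxorubicin minus DMSO were 2.43 ± 0.16 for ATF3, 1.68 ± 0.21 for JUN, 1.50 ± 0.25 for FOSL1, 1.43 ± 0.20 for FOSL2, 1.09 ± 0.16 for MAFF and 1.13 ± 0.32 for JUND, with limma adjusted p between 7.96e-06 and 0.0463. In combination minus IN10018 they were 2.65, 2.22, 2.30, 1.85, 1.36 and 1.05. The call of JUND was lost under 11 of 24 alternatives in doxorubicin minus DMSO and 13 in combination minus IN10018, and the calls of the other 5 were kept in both.

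Upstream of YAP and TAZ, most genes of the Hippo list did not pass the test. Of 22 kinases, scaffolds and their regulators, 1 was called in doxorubicin minus DMSO and 3 in combination minus DMSO and in combination minus IN10018, all higher, which is close to the 5.92%, 14.3% and 14.6% of all genes called higher. RASSF1, a scaffold that binds the MST kinases, had 23.8, 15.2 and 19.5 FPKM in doxorubicin, against 2.85, 4.36 and 3.08 FPKM in DMSO (log2 fold change 2.20 ± 0.26, limma adjusted p = 0.000313). In the combination RASSF1 had 16.1, 30.2 and 23.4 FPKM, against 4.96, 2.91 and 4.42 FPKM in IN10018 (2.23 ± 0.26, limma adjusted p = 0.000141). The table gives 1 value for the gene and does not separate its isoforms. TAOK2, a kinase that phosphorylates the MST kinases, and STRN4, part of a phosphatase complex that opposes them, were higher in the combination than in IN10018 (0.82 ± 0.15 and 1.06 ± 0.26, limma adjusted p = 0.0022 and 0.014), and the call of STRN4 was lost under 7 of 24 alternatives, among them the fits without IN10018 replicate 2 or combination replicate 2 or 3. Of 21 binding partners and inhibitors, 17 passed the filter, and AMOTL2 and the 14-3-3 gene YWHAH (0.71 ± 0.23, limma adjusted p = 0.0486, lost under 19 of 24 alternatives) were called in combination minus IN10018.

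Of 19 genes of the actin and FAK inputs to YAP, 18 passed the filter, and 2 were called higher in doxorubicin minus DMSO, 5 in combination minus DMSO and 4 in combination minus IN10018, where 5.92%, 14.3% and 14.6% of all genes were called higher. BCAR1, an adaptor that FAK and SRC phosphorylate, had 6.06, 17.4 and 20.5 FPKM in the combination, against 4.36, 2.91 and 3.26 FPKM in IN10018 (1.66 ± 0.33, limma adjusted p = 0.00419). PIEZO1, a stretch-activated channel, rose by 1.56 ± 0.29 (limma adjusted p = 0.00309), RHOB, a small GTPase, by 1.19 ± 0.25 (limma adjusted p = 0.00552) and ARHGEF2, an activator of RHOA, by 0.82 ± 0.22 (limma adjusted p = 0.0204) in the same comparison, and the ARHGEF2 call was lost under 6 of 24 alternatives. SRC was called in combination minus DMSO (0.80 ± 0.23, limma adjusted p = 0.0299, lost under 12 of 23 alternatives). In doxorubicin minus DMSO the calls of BCAR1 (1.26 ± 0.33, limma adjusted p = 0.0324) and PIEZO1 (1.06 ± 0.29, limma adjusted p = 0.0432) were lost under 8 and 11 of 24 alternatives.

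The targets of SRF and MRTF, a second actin-sensitive programme that shares genes with YAP, had 14 of 18 genes past the filter and medians of -0.35 in doxorubicin minus DMSO and -0.12 in combination minus IN10018. ACTG1, cytoplasmic gamma actin, fell to 346, 262 and 276 FPKM in doxorubicin, against 537, 408 and 516 FPKM in DMSO (-0.72 ± 0.19, limma adjusted p = 0.0322, lost under 7 of 24 alternatives). FHL2, a LIM domain co-factor, was higher in the combination than in IN10018 (0.99 ± 0.17, limma adjusted p = 0.00187) and than in DMSO (0.72 ± 0.17, limma adjusted p = 0.014, lost under 4 of 24 alternatives, among them the fit without combination replicate 3), and ZYX, the focal adhesion protein zyxin, than in DMSO (0.83 ± 0.26, limma adjusted p = 0.0481, lost under 18 of 24 alternatives). None of the 13 mitochondrially encoded genes, listed as a check on RNA content, was called. Their medians were -0.45 in doxorubicin minus DMSO and 0.42 in combination minus doxorubicin, where MT-CO1 and MT-ND4L had the largest values, both 0.50 (limma adjusted p = 0.246 and 0.269).

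**Figure D5:**
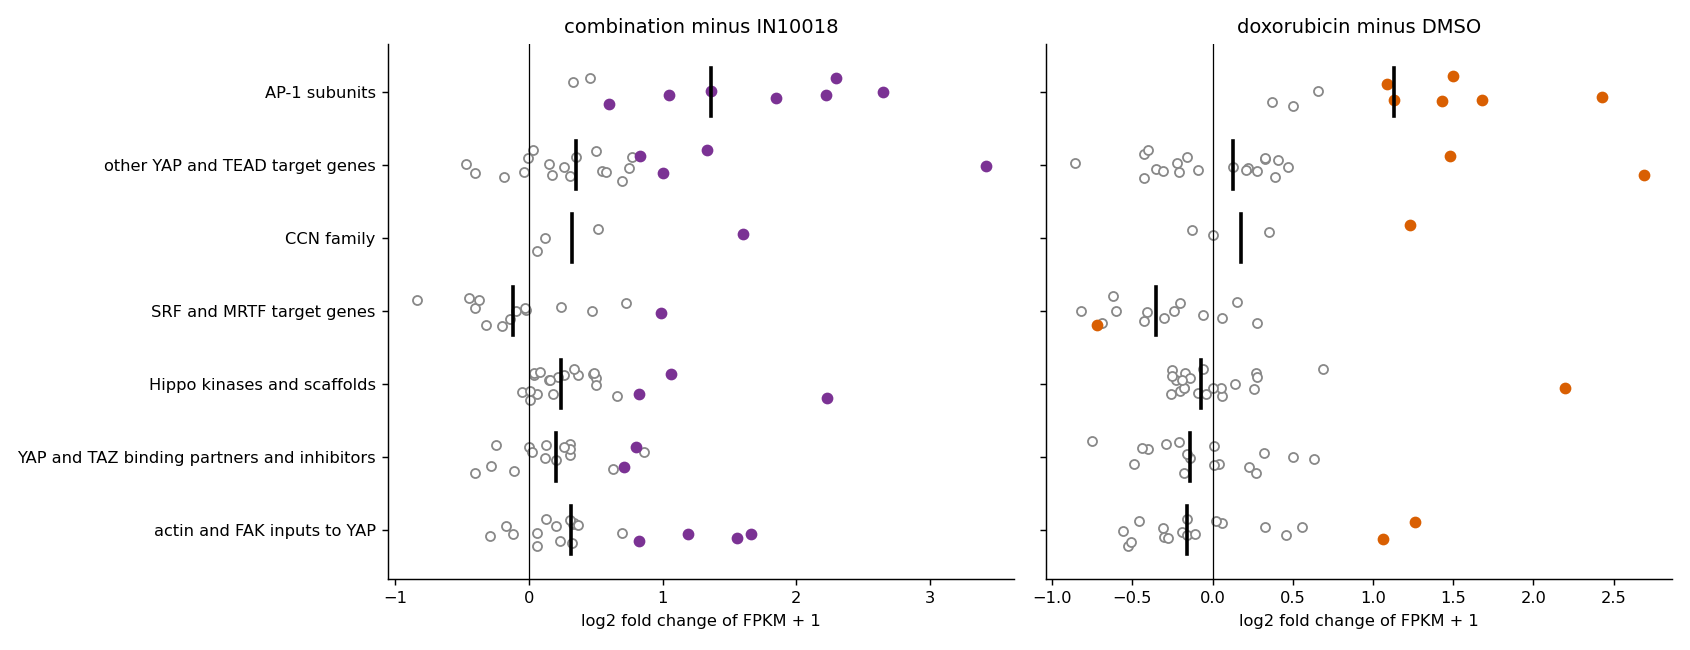
Log2 fold changes of FPKM + 1 for the tested genes of 7 lists in combination minus IN10018 and in doxorubicin minus DMSO, which share no library. Each point is a gene, filled where it passed the adjusted threshold of 0.05, and the black line is the list's median. Medians were 1.36 and 1.13 for the AP-1 list and between -0.35 and 0.35 for the other 6.

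The genes whose levels followed the target genes most closely over the 12 libraries were mostly outside these lists. By Pearson's r of log2(FPKM + 1), among genes with a mean of at least 5 FPKM, CCN1 was most like DTL (0.991), GADD45A (0.989), KLF10 (0.987), ZNF569 (0.986) and CLDN1 (0.986). AMOTL2 was most like ATXN2L (0.970), ATN1 (0.958), SF3A1 (0.954), TIMELESS (0.950) and USP11 (0.948). CCN2 was most like CCNT1 (0.894), SRPK1 (0.886), KIF20B (0.884), HSPA14 (0.884) and AC015922.3 (0.883), and YAP1 most like PAK2 (0.990), EIF1AX (0.984), MRFAP1L1 (0.983), EIF4G2 (0.981) and MAP3K2 (0.979). These correlations include the treatment differences and the shared component of the libraries and are descriptions only.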

How the data were processed

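RNA of 12 SK-OV-3 libraries had been sequenced from strand-specific libraries on an Illumina instrument. The paper's methods and the submitters' processing notes name FASTQC, TopHat, Cufflinks, Cuffdiff and hg38, without versions or annotation. The authors deposited FPKM, normalized by gene length (1 length for each gene) and sequencing depth without a scaling across libraries. The sources used here do not say which program wrote the values. Among the 24090 genes detected in 3 or more libraries, every gene's FPKM fell on whole-number ratios (tolerance 3e-12, relative), and the reads behind each value followed from this. Intervals on reads cover counting error only.

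Values were added up for 93 symbols shared by several genes. A gene was tested if 3 or more libraries reached 1 FPKM, which 11301 did. Treatments were taken from the sample titles. The model (limma 3.58.1 in R 4.3.3, trended prior, 4 treatments, 12 libraries, no replicate block) gave 7 two-sided comparisons. They set each of the 3 drug treatments against DMSO and the combination against its 2 components, and add the interaction and the IN10018 effect pooled over both doxorubicin states. Errors of FPKM are SDs, those of log2 fold changes SEs. The model was run on simulated data with noise drawn separately for each gene. These lacked the component that the real libraries share, so the run does not show how the model behaves on these libraries. Positions come from GENCODE release 29 (GRCh38) and promoters from RefSeq (GRCh38.p14). Python 3.11.15, numpy 2.4.6, pandas 2.3.3, scipy 1.17.1 and matplotlib 3.10.9 did the rest.

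The 10 genes and all gene lists were chosen with earlier results of these data known. Named from each list are at most 6 genes called in any comparison, by smallest adjusted p, or the 2 with the largest change in combination minus doxorubicin where none was called. PTK2, CDKN1A and MDM2 are checks, and 5 genes of most similar pattern are given for each of 4 members. The alternatives were pseudocounts of 0.1 and 0.5, no filter, a filter at 5 FPKM, median-ratio scaling, quantile normalization, only the treatments compared, a replicate block, array weights, voom on recovered reads, each library left out, and the 3 libraries that stood apart left out. A correction for base composition and length, the ANKRD1 ratio without DMSO replicate 3 and the ranges of ratios without those 3 libraries were added after seeing the data.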

Additional observations from a re-analysis of the deposited data

How the results depend on the processing

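The calls of CCN1 and ANKRD1 in the 3 comparisons of treatments with and without doxorubicin were kept under every alternative that tested them, and the filter at 5 FPKM left ANKRD1 out. In the main setting ANKRD1 passed the filter only through the libraries with doxorubicin. The number of the 10 genes called depended more on the setting. For doxorubicin minus DMSO (2 genes) it was 1 with the filter at 5 FPKM, which tested 5 of the genes, 4 with the correction for base composition and length, 5 without the 3 libraries that stood apart, 7 with array weights and 2 to 3 when 1 library was left out. For combination minus DMSO (3 genes) it was 6 with array weights and 2 to 5 when 1 library was left out, the most without combination replicate 1. For combination minus IN10018 (4 genes) it was 2 with the filter at 5 FPKM, with median-ratio scaling and with quantile normalization, 6 with array weights, and 3 to 5 when 1 library was left out. For combination minus doxorubicin (0 genes) it was 4 with array weights and 0 to 1 when 1 library was left out. With array weights it was 1 for the interaction and 2 for the pooled IN10018 effect, both 0 otherwise, as was IN10018 minus DMSO throughout. The array weights stopped before they converged and gave DMSO replicate 3 a weight of 17.5, against 0.183 to 2.18 for the other libraries. The cause of the other differences was not tested. The 3 libraries that stood apart were picked by a component of these data, so the counts without them do not stand apart from that choice.

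These values changed sign. TEAD4 in doxorubicin minus DMSO was -0.07 with the correction for base composition and length, CCN2 in combination minus DMSO -0.02 with quantile normalization, and CCN1 in combination minus doxorubicin -0.09 with median-ratio scaling and -0.03 with quantile normalization. YAP1 in doxorubicin minus DMSO was -0.62 at the lowest, with array weights. With 1 library left out it ran from -0.51 without DMSO replicate 2 to 0.02 without DMSO replicate 3, where its sign changed.

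With the replicate number as a block (paired analysis) the counts were 2 for doxorubicin minus DMSO, 3 for combination minus DMSO and 3 for combination minus IN10018, where the AMOTL2 call was lost, and 0 in the other 4 comparisons. The numbers were not taken to pair the libraries: 5 of 18 same-numbered pairs had a correlation of deviations over 0.1, and 1 library matched its own number best.

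At 3 libraries a treatment, differences in WWTR1, TEAD2 and TEAD3 of the size seen were passed or missed according to the libraries kept. CCN2 had 37 to 121 reads per library, and ANKRD1 had 1 to 12 without doxorubicin, so that its fold change is set by those counts. Changes of the combination carry the shift of all genes of 0.20 to 0.23 on the log2 scale, which median-ratio scaling, quantile normalization and the correction for base composition and length brought to between -0.04 and 0.03. Protein, phosphorylation and location of YAP and TAZ were not measured in these libraries.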
